A study of Arabidopsis thaliana with 75 samples.

Results

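The genes described here are RHD6 (AT1G66470) and 5 other genes for basic helix-loop-helix (bHLH) transcription factors of the root hair pathway of Arabidopsis thaliana: bHLH54 (AT1G27740, also RSL4), bHLH66 (AT2G24260, also LRL1), bHLH82 (AT5G58010, also LRL3), bHLH7 (AT1G03040) and bHLH59 (AT4G02590, also UNE12). They were taken by locus identifier, and all 6 had a row among the 21440 genes of the table. In the TAIR10.1 annotation RHD6 lies at chr1:24795214-24797015, bHLH54 at chr1:9654475-9656089, bHLH66 at chr2:10319213-10322423, bHLH82 at chr5:23483366-23485014, bHLH7 at chr1:703847-706689 and bHLH59 at chr4:1137487-1140540. Their relatives RSL1, bHLH84, bHLH85 and bHLH69 were not analysed here.

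In the Arabidopsis root, epidermal cells over the cleft between underlying cortical cells form hairs and the others do not, a choice made by the WER, MYB23, GL3, EGL3 and TTG proteins on the non-hair side and by CPC and TRY on the hair side. RHD6, a bHLH factor of subfamily VIIIc, acts after that choice and promotes the start of hair outgrowth, and RSL4 (bHLH54), of the same subfamily, promotes hair growth and is known to depend on RHD6. bHLH66, bHLH82, bHLH7 and bHLH59 belong to subfamily XI, whose best known legume member, RHL1 of Lotus japonicus, is needed for root hairs, and auxin and ethylene both promote hair formation.

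The series measured sorted root epidermal cells on Affymetrix ATH1 arrays, 3 biological replicates for each of 25 groups (75 arrays), with 21 groups run at Michigan and 4 at Duke. All groups, the wild type (Columbia) included, carried the WER::GFP transgene, crossed in from 1 transgenic line. Its promoter drives GFP throughout the developing epidermis and more strongly in non-hair cells. By the study's account the sorted cells also include those of the lateral root cap. Root tips of many 5-day seedlings were pooled for each sort. The hairy lines, which make excess hair cells, were wer myb23 (wer-1 myb23-1), gl3 egl3 (gl3-1 egl3-1) and ttg (ttg1-13), with gl2 (gl2-1) a further line of ectopic hairs, and the hairless lines were rhd6 (rhd6-1) and cpc try (cpc-1 try-82). The rhd6 line was also measured after transfer to medium with indole-3-acetic acid (IAA, an auxin), with 1-aminocyclopropane-1-carboxylic acid (ACC, the precursor of ethylene) or with neither (MS, the basal medium). Other bHLH mutants were bhlh66 (bhlh66-1) and myc1 (myc1-1), and 9 lines carried mutations in genes of hair outgrowth: cobl9 (cobl9-1), cow1 (cow1-3), csld3 (csld3-1), ire (ire1-2), lrx1 (lrx1-4), mrh1 (mrh1-1), mrh2 (mrh2-1), mrh3 (mrh3-3) and rhd2 (rhd2-1). The rhd6-1 and bhlh66-1 alleles were insertions of T-DNA, and each line stands for 1 allele combination. The 3 hairy lines and cpc try were run at both facilities.

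Values are log2 signals, so a difference of 1 is 2-fold. Array medians lay between 6.5 and 6.86 at Michigan and between 6.02 and 6.14 at Duke, and the 5th percentile between 2.8 and 3.01 at Michigan and between 3.83 and 4.01 at Duke, so levels were compared within a facility. The epidermal genes WER, MYB23 and GL2 stood at a median percentile of 96.8, 68.6 and 74.4 of the Michigan arrays. The root cap genes SMB, BRN1 and BRN2 stood at 72, 88.8 and 91. The 4 stele genes SHR, SUC2, APL and VND7 stood between 15.5 and 36.5, and the ground tissue genes SCR, CASP1 and CO2 between 3.4 and 38.7. At Duke, the 3 gl3 egl3 arrays stood apart from the arrays of the other lines (correlations over genes between 0.74 and 0.937), as did wer myb23 replicate 2 (0.89 to 0.931), against 0.95 to 0.973 for the other pairs of arrays from different lines. In whole sorted populations, fewer cells of a type and less RNA per cell cannot be told apart.

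RHD6, bHLH54, bHLH66 and bHLH82 were low in cpc try at Michigan, and in the 4 rhd6 groups RHD6 was low, bHLH54 and bHLH82 lay between, and bHLH66 was as high as elsewhere (group means 8.48 to 9.16). Over the 16 Michigan groups that are neither rhd6 nor cpc try (48 arrays), group means of RHD6 lay between 9.11 in mrh2 and 10.49 in gl3 egl3, those of bHLH54 between 8.32 in csld3 and 9.77 in gl3 egl3, those of bHLH66 between 7.23 in csld3 and 9.29 in gl3 egl3, and those of bHLH82 between 9.48 in csld3 and 11.23 in mrh1. The mean SD within a group was 0.33 for RHD6, 0.45 for bHLH54, 0.78 for bHLH66 and 0.55 for bHLH82, so bHLH66 was the least evenly measured of the 4. In cpc try these 4 read at the 24.7th to 39.1th percentile of their arrays, near the stele and ground tissue genes above, and whether such values exceed background was not tested, so differences from cpc try may be limited by it. bHLH7 and bHLH59 had no group set apart by a low signal. For bHLH7 the 21 Michigan group means lay between 6.94 in cobl9 and 8.09 in rhd6. For bHLH59 they lay between 5.58 in wer myb23 and 7.27 in rhd6. The bHLH59 means in wer myb23 and myc1 (5.64) were near that of bHLH82 in cpc try (5.51), so the same limit may apply to them.

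When the 21 groups were ordered by mean, most neighbours shared part of their range of arrays. For RHD6, 18 of 20 neighbouring pairs overlapped, and the breaks lay above the rhd6 groups and between rhd6 and cpc try. For bHLH54 and bHLH82, 19 of 20 overlapped, with the break between rhd6 on MS and cpc try, the lowest group. For bHLH66, 19 of 20 overlapped too, and the only break lay between csld3 and cpc try. For bHLH7 and bHLH59 all 20 neighbouring pairs overlapped.

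**Figure D1:**
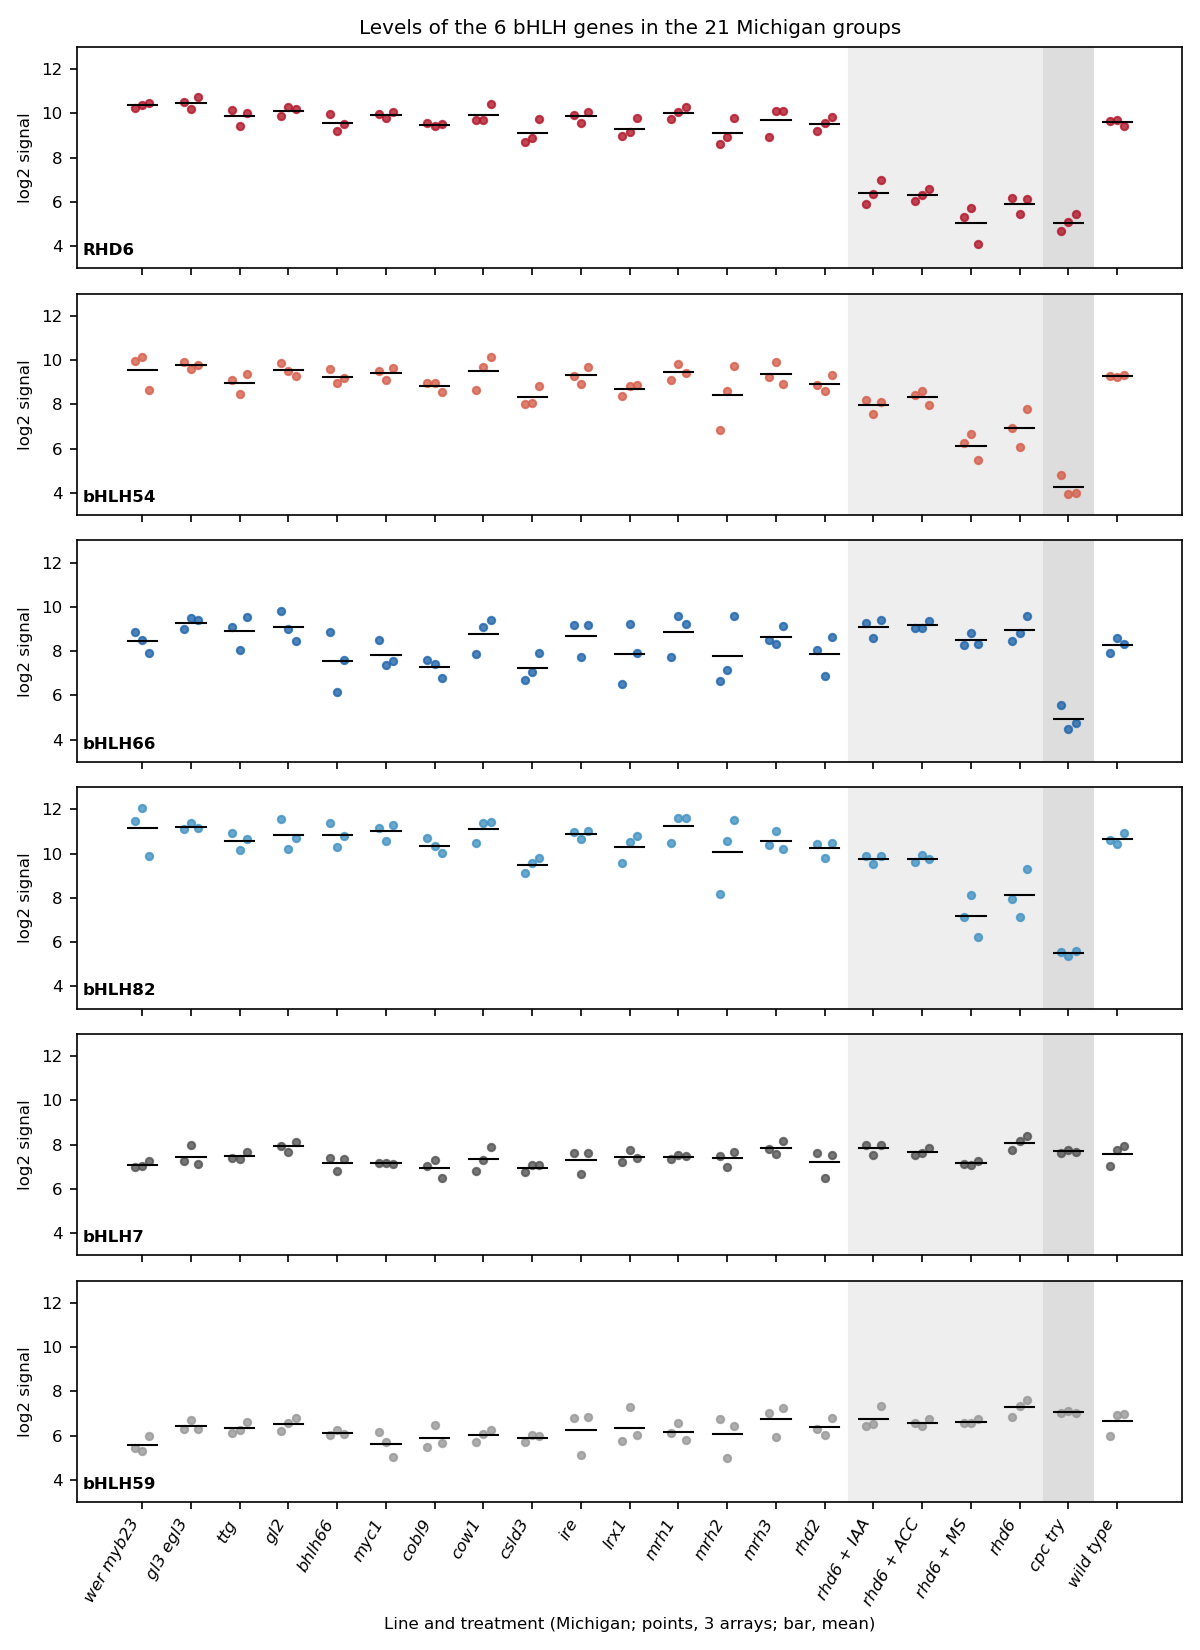
The log2 signal of each gene (vertical axes) in the 21 Michigan groups (horizontal axis), with the 3 arrays of a group as points and their mean as a bar, the 4 rhd6 groups on light grey and cpc try on darker grey. RHD6 is low in all 4 rhd6 groups (means 5.06 to 6.42), bHLH54 and bHLH82 are partly lowered there, bHLH66 is not, and only in cpc try are bHLH54, bHLH66 and bHLH82 all at their lowest.

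The rhd6 line was compared with wild type to ask which members depend on RHD6, and the mutated gene itself was the first check. RHD6 read 6.19, 5.46 and 6.13 in rhd6 arrays, against 9.68, 9.69 and 9.41 in wild type arrays. The difference was -3.67 (SE 0.33, limma adjusted p = 9.42e-11), in the direction the genotype label calls for. bHLH54, the growth factor known to act downstream of RHD6, read 6.92, 6.09 and 7.78 in rhd6 and 9.30, 9.22 and 9.34 in wild type. All rhd6 values lay below all wild type values, and the difference was -2.35 (SE 0.44, limma adjusted p = 0.000422). bHLH82, a subfamily XI factor, read 7.93, 7.14 and 9.30 in rhd6, against 10.61, 10.42 and 10.93 in wild type. It fell by 2.53 on the log2 scale (SE 0.53, limma adjusted p = 0.00185), again with no overlap.

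bHLH66, the closest relative of bHLH82 among the 6, did not follow it. Its arrays read 8.46, 8.83 and 9.59 in rhd6 and 7.93, 8.61 and 8.32 in wild type, with overlapping ranges. The difference was 0.67, with a 95% interval of -0.57 to 1.92 (SE 0.62, limma adjusted p = 0.914), an interval that does not reach the decrease of bHLH82. bHLH7 differed by 0.51 (adjusted p = 0.646) and bHLH59 by 0.63 (adjusted p = 0.765), both with overlapping arrays. Thus 3 of the 6 members passed 2-fold at 5% FDR, all lower in rhd6, against 1.88% of all genes. Of these 3, RHD6 is the mutated gene itself and bHLH54 its known target.

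To set bHLH82 and bHLH66 directly against each other, the value of bHLH66 was subtracted from that of bHLH82 on each array. The result averaged -0.84 ± 0.75 in rhd6 and 2.37 ± 0.48 in wild type (SD, n = 3 each), a shift of -3.21. The exact two-sided permutation test gave p = 0.1, the smallest value that 3 arrays against 3 allow, and 0.171 after adjustment over the 12 tests of this kind. For RHD6 minus bHLH54 the shift was -1.32 (exact p = 0.1), and for bHLH59 minus bHLH7 it was 0.12 (exact p = 0.2).

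Sample labels carry 3 array series (numbered, S and x), and rhd6 and wild type share S and x. Within series S (2 rhd6 arrays, 1 wild type array) the differences were -3.87 for RHD6, -2.71 for bHLH54, -2.89 for bHLH82 and 0.04 for bHLH66. Within series x (1 array each) they were -3.28 for RHD6, -1.56 for bHLH54, -1.63 for bHLH82 and 1.27 for bHLH66. The direction of RHD6, bHLH54 and bHLH82 was thus the same in both. The summed signal of the 3 root cap genes was 3950 to 6000 in rhd6 and 2450 to 5840 in wild type, that of the 3 ground tissue genes 123 to 225 in rhd6 and 118 to 199 in wild type, and that of the 4 stele genes 77.7 to 114 in rhd6 and 83.5 to 90.5 in wild type, and their part in these differences was not tested. The bHLH82 call did not pass without rhd6 replicate 2 (difference -2.04, limma adjusted p = 0.0621) or when only rhd6 and wild type were fitted (adjusted p = 0.0597).

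Among genes that act in hair growth, 14 of the 17 listed were lower in rhd6 than in wild type past the same thresholds and none was higher, with a median of -3.25, against a median of 0.04 over all genes. The study reports from the same arrays that most of its core hair genes were lower in rhd6. The count of 14 thus describes the list and is not independent evidence. The expansin gene EXPA18 averaged 7.05 ± 0.80 in rhd6 and 11.23 ± 0.10 in wild type, and COBL9, for a COBRA-like protein, averaged 6.41 ± 0.75 in rhd6 and 10.13 ± 0.42 in wild type (SD, n = 3 each). None of the 12 patterning genes passed in either direction. The largest difference among them was that of MYC1, a bHLH gene of the patterning step, at -1.51 (SE 0.57, limma adjusted p = 0.262).

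The hairless lines differ in where they act, cpc try at the cell fate choice and rhd6 after it, and were compared with each other at 2-fold and 2% FDR. bHLH66 read 8.46, 8.83 and 9.59 in rhd6, against 5.58, 4.47 and 4.77 in cpc try. It was higher in rhd6 by 4.02 on the log2 scale (SE 0.62, limma adjusted p = 1.46e-05), against cpc try readings at the 30.1th to 38.1th percentile. bHLH54 was 2.67 higher in rhd6 (SE 0.44, adjusted p = 4.87e-05; cpc try arrays 4.82, 3.98 and 4.01). bHLH82 was 2.61 higher in rhd6 (SE 0.53, adjusted p = 0.00102; cpc try arrays 5.55, 5.38 and 5.60). The levels of bHLH54 and bHLH82 in rhd6 thus lay between those of cpc try and wild type, without overlap on either side, while the range of bHLH66 in rhd6 overlapped that of wild type. RHD6 itself was 0.86 higher in rhd6 than in cpc try (SE 0.33, adjusted p = 0.139), not past the threshold. In all 3 of 6 members passed, against 2.78% of all genes. The rhd6 arrays are the same in both comparisons, so the comparisons are not independent. The study also chose bHLH54, bHLH66 and bHLH82 as core hair genes from hairy lines against cpc try, with the same cpc try arrays. The count of 3 thus describes them and is not independent evidence. The rhd6 arrays belong to series S and x and the cpc try arrays to the numbered series, so they share no series. With the series as a factor, set by the lines that span several, the differences were 4.16 for bHLH66, 3.07 for bHLH54 and 3.43 for bHLH82, all past the threshold (limma adjusted p at most 0.00118). The summed root cap signal was 3950 to 6000 in rhd6 and 2710 to 3260 in cpc try, without overlap, and its part was not tested. When only rhd6 and cpc try were fitted, bHLH66 alone passed (limma adjusted p = 0.0396 for bHLH54 and 0.0582 for bHLH82), and bHLH82 did not pass without rhd6 replicate 3 (2.02, adjusted p = 0.0416).

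Auxin and the ethylene precursor restore hairs to rhd6 roots, and the treated groups were set against rhd6 moved to MS. bHLH82 read 9.60, 9.95 and 9.76 on ACC and 9.89, 9.51 and 9.91 on IAA, against 7.13, 8.14 and 6.22 on MS. Every treated array lay above every MS array and the treated arrays were close to each other, while the MS arrays were spread over almost 2 log2 units. The difference was 2.61 with ACC (SE 0.53, 6.09-fold, limma adjusted p = 0.00329) and 2.61 with IAA (SE 0.53, adjusted p = 0.00693). At the 0.5% FDR set for hormones the ACC value passed and the IAA value did not, although the size was the same.

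bHLH54 read 8.43, 8.60 and 7.97 on ACC and 8.21, 7.56 and 8.12 on IAA, against 6.25, 6.68 and 5.48 on MS. The groups did not overlap here either. The difference was 2.19 with ACC (SE 0.44, 4.58-fold, limma adjusted p = 0.0031), which passed, and 1.83 with IAA (SE 0.44, 3.55-fold, adjusted p = 0.0244), which did not. The RHD6 probe set, in a line with an insertion in RHD6, read 6.05, 6.32 and 6.58 on ACC and 5.93, 6.34 and 6.98 on IAA, against 5.34, 5.72 and 4.12 on MS. Its differences of 1.25 with ACC (adjusted p = 0.0581) and 1.36 with IAA (adjusted p = 0.0265) did not pass, and its highest treated array stayed below the lowest wild type array, 9.41.

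bHLH66, already at the level of wild type in rhd6, read 9.06, 9.05 and 9.38 on ACC and 9.28, 8.62 and 9.42 on IAA, against 8.27, 8.83 and 8.34 on MS. The ACC arrays lay just above the MS arrays and the IAA arrays overlapped them. The differences were 0.68 with ACC (95% interval -0.56 to 1.93) and 0.62 with IAA (-0.62 to 1.87). bHLH7 differed by 0.49 with ACC and 0.67 with IAA, and bHLH59 by -0.05 with ACC and 0.13 with IAA, none past the threshold. In all, 2 of 6 members passed with ACC, against 0.345% of all genes, and 0 of 6 with IAA, against 0.135% of all genes. With IAA 4 of 6 had an unadjusted limma p under 0.05, a level at which all genes were not counted. At 2-fold and an unadjusted limma p under 0.01, 1574 of the 21440 genes passed with IAA. Both treatments were measured against the same 3 MS arrays. The bHLH82 and bHLH54 calls with ACC were each lost without any 1 of ACC replicates 1, 2 and 3 or MS replicates 1 and 3 (limma adjusted p up to 0.111 for bHLH82 and 0.0825 for bHLH54, differences of at least 2.14 and 1.86). Both were also lost when only ACC and MS were fitted (adjusted p = 0.0172 for bHLH82 and 0.0106 for bHLH54), and that of bHLH54 after a shift of all arrays to 1 median (2.21, adjusted p = 0.00537).

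**Figure D2:**
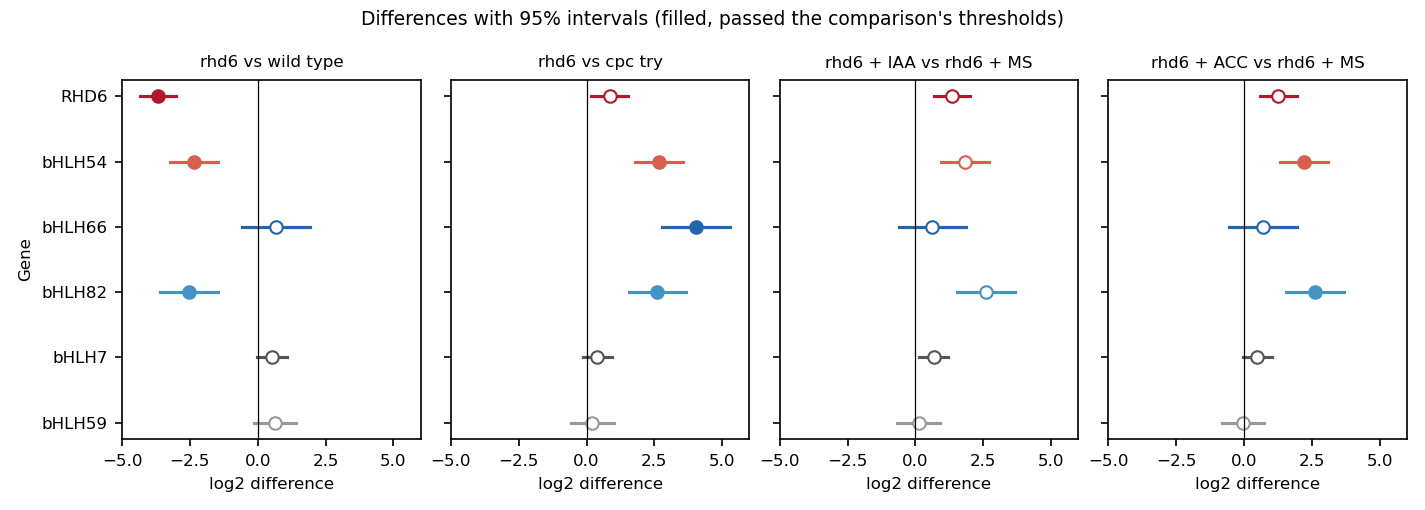
Log2 differences of the 6 genes (rows) in 4 comparisons (panels), with 95% intervals as lines and the first named group minus the second on the horizontal axis; filled points passed the thresholds of their comparison. bHLH66 lies right of 0 against cpc try (4.02) and has intervals that span 0 in the other 3 panels, while bHLH54 and bHLH82 lie left of 0 against wild type and right of 0 with each hormone.

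The hormones were also compared with each other, since a call with ACC and none with IAA does not show a difference. No member passed 5% FDR between IAA and ACC (0 of 6 in limma, none at an unadjusted p under 0.05, against 0.014% of all genes). The difference, IAA minus ACC, was 0.00 for bHLH82 (95% interval -1.06 to 1.06) and -0.37 for bHLH54 (-1.25 to 0.52), so a 2-fold difference between the hormones stays within these intervals. Transfer itself was checked by setting rhd6 on MS against untransferred rhd6. None of the 6 passed 2-fold at 5% FDR, against 1.18% of all genes. At an unadjusted limma p under 0.05 there were 2 of 6, with all genes not counted. The nearest was bHLH7, at 7.13, 7.10 and 7.27 on MS and 7.76, 8.15 and 8.37 in rhd6 (difference -0.92, limma adjusted p = 0.0562), and bHLH82 differed by -0.96 (adjusted p = 0.286). bHLH7 passed without rhd6 replicate 1 (-1.09, adjusted p = 0.0281), and also after quantile normalization or a shift of all arrays to 1 median. The MS arrays are all of the numbered series and the rhd6 arrays of S and x, so the lines share no series here. With the series as a factor, set by the lines that span several, bHLH7 differed by -0.66 (limma adjusted p = 0.354) and bHLH82 by -1.77 (adjusted p = 0.297), and no member passed. The summed root cap signal was 1480 to 2680 on MS and 3950 to 6000 in untransferred rhd6, without overlap. Of the 3 root cap genes 1 passed as lower on MS in the main fit, and the part of this in the result was not tested.

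Within arrays, bHLH82 minus bHLH66 averaged 0.64 ± 0.22 on IAA and ACC together (SD, n = 6) and -1.32 ± 0.73 on MS (SD, n = 3). The shift of 1.95 had an exact permutation p = 0.0119, the smallest that 6 arrays against 3 allow, and 0.0476 after adjustment over 12 tests. That margin was thin: the adjusted p was 0.0714 after quantile normalization and between 0.0536 and 0.143 without any 1 of the 9 arrays compared, where the smallest possible p is also larger. RHD6 minus bHLH54 shifted by -0.71 (exact p = 0.0476, adjusted 0.114) and bHLH59 minus bHLH7 by -0.54 (exact p = 0.0238, adjusted 0.0714).

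Of the 17 hair growth genes, 12 were higher with ACC and 7 with IAA past the same thresholds as the members, and none was lower. Their medians were 3.04 with ACC and 2.49 with IAA, against -0.04 and 0.01 over all genes. PRP3, for a proline-rich wall protein, averaged 10.23 ± 0.39 on ACC, 9.86 ± 0.71 on IAA and 6.92 ± 0.98 on MS (SD, n = 3 each), and MRH1, for a receptor-like kinase, averaged 8.35 ± 0.24 on ACC, 7.74 ± 0.64 on IAA and 4.94 ± 1.17 on MS. PRP3 and MRH1 are core hair genes of the study, which reports many such genes raised by both hormones. The counts of 12 and 7 thus describe the list and are not independent evidence. Of the 8 auxin response genes none passed with IAA, with a median of 0.99, and of the 5 ethylene response genes none passed with ACC, with a median of 1.26. The summed root cap signal was 2260 to 3950 on ACC, 3050 to 4660 on IAA and 1480 to 2680 on MS, so the IAA arrays lay above the MS arrays, and the part of this in the result was not tested. The summed ground tissue signal was 65.9 to 112 on ACC, 114 to 249 on IAA and 95.6 to 182 on MS, and that of the stele 67.1 to 81.6 on ACC, 82.3 to 101 on IAA and 81.2 to 89.2 on MS.

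The patterning mutants show the members against the cell fate choice. RHD6, bHLH54, bHLH66 and bHLH82 stand on a list that the study drew from the contrast of hairy lines with cpc try in these arrays, so their differences there describe them and are not independent evidence, whereas bHLH7 and bHLH59 are not on it. At Michigan the hairy lines averaged 10.24 ± 0.37 for RHD6, 9.44 ± 0.60 for bHLH54, 8.87 ± 0.60 for bHLH66 and 10.98 ± 0.66 for bHLH82 (SD, n = 9). The cpc try arrays averaged 5.07 ± 0.38 for RHD6, 4.27 ± 0.48 for bHLH54, 4.94 ± 0.58 for bHLH66 and 5.51 ± 0.11 for bHLH82 (SD, n = 3). The hairy lines were higher by 5.17, 5.17, 3.93 and 5.47, with no overlap for any of the 4. The remaining members pointed the other way or nowhere: bHLH59 averaged 6.11 ± 0.47 in the hairy lines and 7.06 ± 0.06 in cpc try, a difference of -0.94 (SE 0.32, limma adjusted p = 0.0438) that did not pass 1% FDR, and bHLH7 differed by -0.36 (adjusted p = 0.387). Altogether 4 of 6 members passed, against 7.16% of all genes. bHLH59 passed when only these 4 groups were fitted (adjusted p = 0.00543).

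Pairs of related members were compared within arrays in this contrast too. The permutations treat the 9 hairy arrays as interchangeable although they come from 3 lines, so the p-values do not measure the spread among lines. At Michigan, bHLH82 minus bHLH66 averaged 2.10 ± 0.66 in the hairy lines and 0.57 ± 0.53 in cpc try, a shift of 1.53 (exact permutation p = 0.00455, the smallest that 9 arrays against 3 allow, adjusted 0.0273). bHLH59 minus bHLH7 averaged -1.22 ± 0.28 in the hairy lines and -0.64 ± 0.03 in cpc try, a shift of -0.58 (exact permutation p = 0.00455, adjusted 0.0273). For RHD6 minus bHLH54 the shift was 0.01 (exact permutation p = 1), with an SD of 0.83 among the cpc try arrays, so equal change is not shown. At Duke the shifts were -0.02 for bHLH82 minus bHLH66 (exact permutation p = 0.982), 0.20 for bHLH59 minus bHLH7 (0.414) and -0.45 for RHD6 minus bHLH54 (0.645), so neither Michigan shift was seen there. The low cpc try readings enter the shifts that involve RHD6, bHLH54, bHLH66 and bHLH82. After quantile normalization the adjusted p became 0.0545 for the bHLH82 pair and 0.0727 for the bHLH59 pair, and with single arrays left out it reached 0.109 for each.

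The wild type root holds hair and non-hair cells, and its arrays lay with those of the hairy lines. In cpc try the differences from wild type were -4.53 for RHD6, -5.02 for bHLH54, -3.35 for bHLH66 and -5.15 for bHLH82 (limma adjusted p at most 0.000164), all 4 past 2-fold at 5% FDR. The same cpc try arrays entered the contrast behind the study's list, so these 4 calls too are not independent evidence. No member passed in wer myb23, gl3 egl3, ttg or gl2. Over the 30 gene and line pairs 4 passed, all in cpc try, against 1.08% of all such pairs. That share came mostly from cpc try, with 1.21% of all genes higher and 2.93% lower. The shares were 0.00933% each way in wer myb23, and 0.014% higher and 0.14% lower in gl3 egl3. They were 0.238% and 0.644% in ttg, and 0.0979% and 0.117% in gl2. RHD6 was 0.77 above wild type in wer myb23 (arrays 10.25, 10.38 and 10.46), 0.89 in gl3 egl3 (10.51, 10.18 and 10.76), 0.29 in ttg and 0.53 in gl2 (9.89, 10.28 and 10.20). None of these passed after adjustment (limma adjusted p at least 0.621), although the wer myb23, gl3 egl3 and gl2 arrays all lay above the wild type arrays. Among wer myb23, gl3 egl3, ttg and gl2, an F-test found no member that differed at 5% FDR (0 of 6, against 2.24% of all genes). At an unadjusted p under 0.05 in that F-test there was 1 of 6, with all genes not counted.

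At Duke, lines of the same labels gave smaller differences from cpc try for RHD6, bHLH54, bHLH66 and bHLH82, and RHD6 split the hairy lines. RHD6 read 8.70, 8.98 and 8.12 in wer myb23 and 7.74, 8.16 and 8.24 in ttg, but 5.88, 5.97 and 5.92 in gl3 egl3, against 4.63, 4.37 and 4.66 in cpc try. The gl3 egl3 arrays thus lay close together, between the other hairy lines and cpc try, whereas at Michigan gl3 egl3 had the highest RHD6 mean of all groups. The F-test among the 3 hairy lines of Duke gave a limma adjusted p = 5.62e-05 for RHD6 and passed no other member, 1 of 6 against 46.7% of all genes, so that a difference among these lines was common to much of the array. Without gl3 egl3, RHD6 did not pass (adjusted p = 0.209). bHLH82 had its highest Duke group mean in gl3 egl3, with arrays at 10.64, 9.67 and 8.07, of which the last lay within the range of wer myb23, against 5.61, 5.33 and 5.60 in cpc try, and bHLH54 read 9.87, 8.99 and 7.62 there.

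Other genes marked the gl3 egl3 arrays of Duke too. EGL3, mutated in this line, read 4.47, 4.52 and 4.45 in them, against means of 7.87 in ttg, 7.46 in wer myb23 and 4.46 in cpc try at Duke. Within Michigan, its gl3 egl3 mean was 7.18, against 8.37 in ttg, 7.68 in wer myb23 and 5.91 in cpc try. MYC1 averaged 4.91 in gl3 egl3 at Duke, against 7.58 in ttg, 8.15 in wer myb23 and 3.99 in cpc try, while at Michigan gl3 egl3 averaged 8.77, beside 8.29 in ttg, 8.71 in wer myb23 and 3.74 in cpc try. GL2 read 5.60, 4.91 and 5.03 in gl3 egl3 at Duke, but 2.92, 8.52 and 4.79 at Michigan, where the replicates disagreed. Michigan replicate 2 was also the lowest for EGL3 (6.37, against 7.65 and 7.50) and MYC1 (7.87, against 9.40 and 9.05). Relative to the other lines of their facility, the gl3 egl3 arrays of Duke and Michigan thus differed in EGL3, MYC1 and RHD6, and whether they hold the same material was not tested, which bears on the RHD6 split and on the difference between facilities. The summed root cap signal in these Duke arrays was 4590 to 7200, above the 504 to 3770 of wer myb23, 2280 to 2490 of ttg and 1430 to 2480 of cpc try, and its part in the RHD6 values was not tested.

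Over the 3 hairy lines of Duke together, the differences from cpc try were 2.97 for RHD6 (limma adjusted p = 1.28e-05), 3.42 for bHLH54 (0.000705) and 2.84 for bHLH66 (0.000189), which passed 1% FDR, and 2.82 for bHLH82 (0.0109), which did not. bHLH7 differed by -0.58 (0.0682) and bHLH59 by -0.39 (0.0769). That made 3 of 6 members, against 3.46% of all genes. With all hairy arrays fitted as 1 class, RHD6 did not pass (adjusted p = 0.0469). In a test of the difference between facilities, RHD6 differed by 2.20 more at Michigan (SE 0.37, limma adjusted p = 0.000124) and bHLH82 by 2.65 more (SE 0.65, adjusted p = 0.0146), 2 of 6 members against 2.33% of all genes. Both values depended on how the facilities were put on 1 scale: after quantile normalization of all 75 arrays together they were 0.94 for RHD6 (adjusted p = 0.23) and 2.27 for bHLH82 (adjusted p = 0.0581). Without the gl3 egl3 groups of both facilities the RHD6 value was 1.28 (adjusted p = 0.0956), and without cpc try replicate 3 of Duke that of bHLH82 had an adjusted p = 0.0578. The values of bHLH54 (1.75, SE 0.53, limma adjusted p = 0.0627) and bHLH66 (1.10, adjusted p = 0.581) were also larger at Michigan, short of the threshold. That of bHLH54 passed in 4 fits without 1 array (adjusted p 0.0261 to 0.0465). Of the 17 hair growth genes, 5 passed as larger at Michigan and none as smaller, against 1.54% and 0.788% of all genes.

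**Figure D3:**
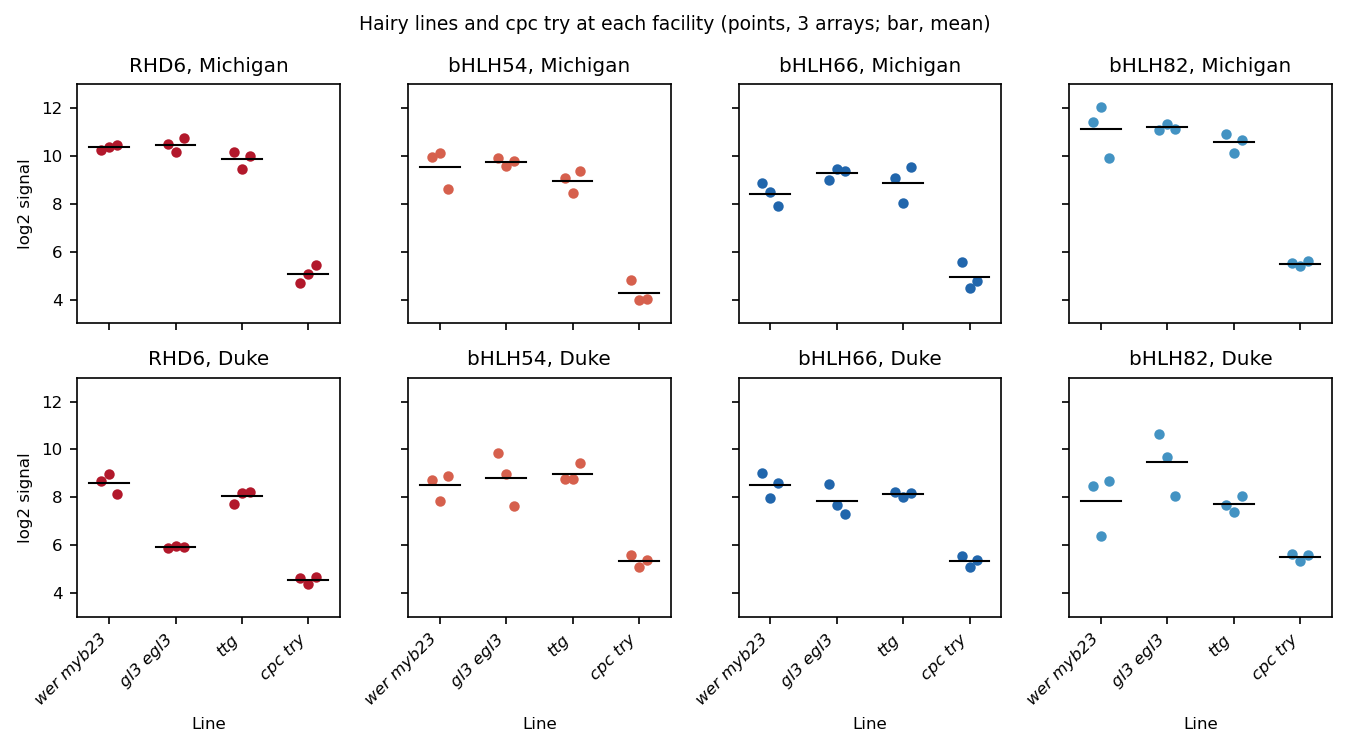
The log2 signal (vertical axes) of RHD6, bHLH54, bHLH66 and bHLH82 in the 3 hairy lines and cpc try (horizontal axes), with Michigan in the upper and Duke in the lower row, the 3 arrays of a line as points and their mean as a bar. In the Duke row the RHD6 points of gl3 egl3 (5.88 to 5.97) lie well below those of wer myb23 and ttg, while the mean of bHLH82 is highest in gl3 egl3.

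Lines with mutations in genes of hair outgrowth were compared with wild type to see whether the members respond to a hair that fails later. None of the 54 gene and line pairs passed 2-fold at 5% FDR in limma, against 0.57% of all such pairs. Of the 54, 4 had an unadjusted limma p under 0.05, a level at which all genes were not counted. Nearly all calls over all genes came from csld3 (1.03% of genes higher and 2.02% lower) and mrh3 (0.979% and 1.02%). In each of the other lines at most 0.0187% of genes passed in either direction, so the absence of member calls there says little. RHD6 differed from wild type by -0.48 to 0.44 over the 9 lines, bHLH54 by -0.97 to 0.22, bHLH66 by -1.06 to 0.56, bHLH82 by -1.17 to 0.58, bHLH7 by -0.64 to 0.26 and bHLH59 by -0.76 to 0.10. The F-test over the 9 lines and wild type passed none of the 6 (0 at an unadjusted p under 0.05, against 4.03% of all genes). With standard errors between 0.27 and 0.62, a 2-fold change of bHLH66 or bHLH82 in 1 line was not detectable with confidence. The summed root cap signal lay below the wild type range of 2450 to 5840 in ire (1520 to 1960), mrh1 (1510 to 2290) and mrh3 (2310 to 2370) and overlapped it in the other 6 lines, and its part was not tested.

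The lowest values of several members came from csld3, mutated in a cellulose synthase-like gene. bHLH82 read 9.10, 9.56 and 9.78 in csld3 and 10.61, 10.42 and 10.93 in wild type, without overlap (difference -1.17, SE 0.53, limma adjusted p = 0.16). bHLH54 read 8.04, 8.07 and 8.84 in csld3 and 9.30, 9.22 and 9.34 in wild type, also without overlap (-0.97, SE 0.44, adjusted p = 0.163). bHLH66 differed by -1.06 (adjusted p = 0.278) and RHD6 by -0.48 (adjusted p = 0.368). These are values short of the threshold. Among the hair growth genes, 3 of 17 were lower in csld3 past it, against 2.02% of all genes, namely CSLD3 itself (-7.08) and the expansin genes EXPA18 (-2.63) and EXPA7 (-2.11).

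In mrh2, mutated in a kinesin gene, the replicates disagreed. bHLH82 read 8.16, 10.56 and 11.53, bHLH54 6.86, 8.62 and 9.75, and bHLH66 6.64, 7.13 and 9.61, with SDs of 1.74, 1.46 and 1.59, the largest of any Michigan group for each gene. Replicate 1 was the lowest for all 3.

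The bhlh66 line gave no array check of its genotype. bHLH66 read 8.88, 6.17 and 7.62 in it and 7.93, 8.61 and 8.32 in wild type (difference -0.73, SE 0.62, limma adjusted p = 0.589), so that 1 array lay above all wild type arrays and the others below them. No other member differed by more than 0.52 in either direction, that value being the decrease of bHLH59 (adjusted p = 0.532). None of the 6 passed (0 at an unadjusted limma p under 0.05), against 0.00466% of all genes, and in particular bHLH82, the closest relative, differed by 0.17 (95% interval -0.89 to 1.24). The summed root cap signal was 1420 to 2240 in bhlh66, below the 2450 to 5840 of wild type, and its part was not tested.

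In myc1, the other bHLH mutant, RHD6 averaged 9.94 ± 0.14, against 9.59 ± 0.16 in wild type (SD, n = 3 each), without overlap but with a difference of only 0.34 (SE 0.33, limma adjusted p = 0.607). bHLH59 was the member with the largest difference, 5.05 to 6.17 in myc1 against 6 to 7 in wild type (difference -1, SE 0.39, adjusted p = 0.235). None of the 6 passed, 1 of them had an unadjusted limma p under 0.05, and 0.00933% of all genes passed. The summed root cap signal was 1320 to 2230 in myc1, again below wild type, and its part was not tested.

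The members' patterns over the 21 Michigan group means were then set beside each other, as a description, since the means share arrays, facility and normalization. bHLH54 and bHLH82 had a Pearson correlation of 0.99, and RHD6 one of 0.90 with bHLH54 and 0.89 with bHLH82. RHD6 and bHLH66 had 0.24 over the 21 groups, but 0.90 over the 17 without the 4 rhd6 groups and 0.78 over the 16 without cpc try as well. Thus it was in the rhd6 groups that bHLH66 parted from RHD6. bHLH7 and bHLH59 had 0.81 with each other, and RHD6 had -0.36 with bHLH7 and -0.67 with bHLH59. Over the 16 groups with neither rhd6 nor cpc try, those last 2 values were 0.26 and -0.02.

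**Figure D4:**
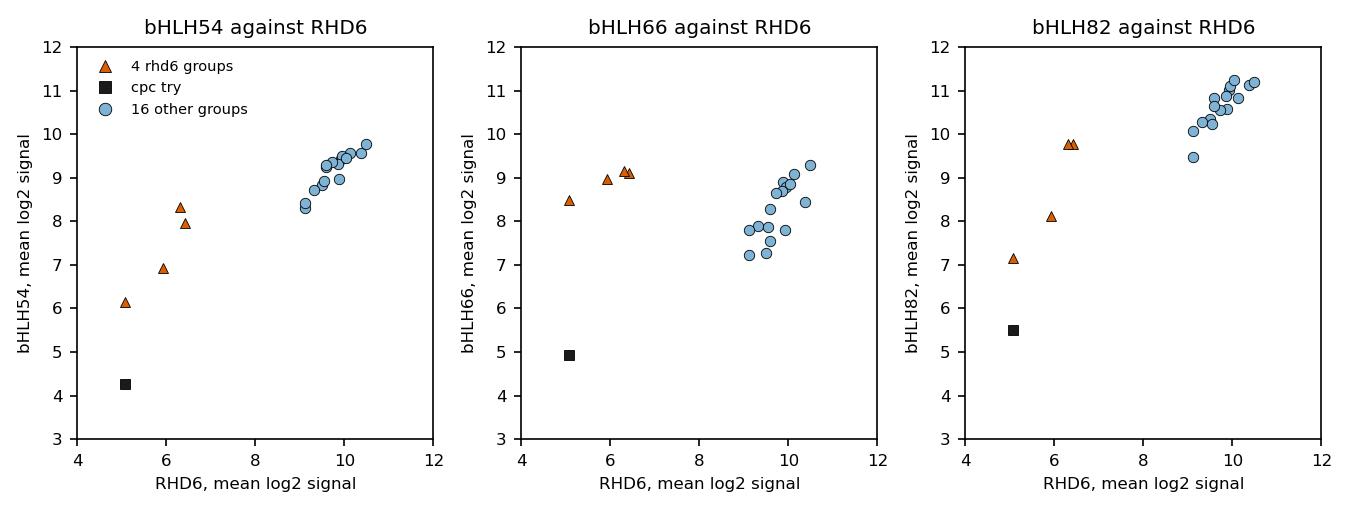
Mean log2 signal of bHLH54, bHLH66 and bHLH82 (vertical axes) against that of RHD6 (horizontal axes), 1 point for each of the 21 Michigan groups, with the 4 rhd6 groups as triangles, cpc try as a square and the 16 others as circles. The rhd6 groups have RHD6 means of 5.06 to 6.42 in all 3 panels, but in the bHLH66 panel they sit at the height of the circles.

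The genes most like each member were taken as the 3 with the highest Pearson correlation over the 21 Michigan group means. For RHD6 they were GSTU28 (AT1G53680, a glutathione S-transferase gene, 0.982), AT4G17100 (0.978) and AT2G47540 (0.974). For bHLH54 they were bHLH82 (0.991), ROPGEF4 (0.987), which encodes an exchange factor of ROP GTPases, and PERK13 (0.987), which encodes a receptor-like kinase. For bHLH82 they were ROPGEF4 (0.994), AT1G30870 (0.993) and bHLH54 (0.991). The nearest genes to bHLH66 were less close: AT4G20330 (0.896), PLDBETA2 (AT4G00240, a phospholipase D gene, 0.894) and AT4G10370 (0.862). For bHLH7 they were EXGT-A3 (AT2G01850, 0.936), AT3G03440 (0.892) and PPa4 (AT3G53620, 0.889), and for bHLH59 they were SAL1 (AT5G63980, 0.908), FBH4 (AT2G42280, 0.901) and RBK1 (AT5G10520, 0.897). The choice of genes depended on the measure: by Spearman correlation none of the 3 was shared for any member except bHLH59, for which 2 were.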

How the data were processed

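RNA from sorted WER::GFP root cells was measured on Affymetrix ATH1 arrays, and the deposited log2 values came from RMA, run by the authors with quantile normalization on redefined probe sets (1 per gene). How the facilities were divided for it is not given in the sources used here. After 64 control probe sets were removed, 21440 genes on 75 arrays were used unchanged. In R 4.3.3 with limma 3.58.1, a model of 1 mean per group was fitted to all arrays of a facility (lmFit, eBayes), with Benjamini-Hochberg adjustment over all genes, and differences between facilities came from 1 fit of all arrays. Thresholds were 1% FDR for hairy lines over cpc try, 2-fold and 5% for lines over wild type, 2-fold and 2% for rhd6 over cpc try, and 2-fold and 0.5% for hormones over MS. Shares of all genes are at the threshold of each call, and were not counted at the unadjusted p under 0.05 given beside some calls. The fits were tested on simulated data. Members and lists were chosen with earlier results of these data known. The text names the 6 members, at most 4 genes of a list by size of difference, and for each member the 3 genes most correlated with it. EGL3, MYC1 and GL2 by facility were named after their values were seen. Same-numbered replicates deviated together (every correlation over 0.1) in 4 of 28 pairs of groups, rhd6 and wild type among them (0.493, 0.472 and 0.55). No label names a batch, but replicate 2 of rhd6 and of wild type share array series S, and replicate 3 of each share series x. Replicate 1 was of series S in rhd6 and of the numbered series in wild type. Alternatives were a replicate block, separate fits of the compared groups alone, the array series as a factor, quantile normalization, a median shift, a filter on dim genes, an unadjusted p under 0.01, 2 classes, and leaving out each array, with the Duke gl3 egl3 group left out as a choice made after seeing the data. The 3 arrays per group limit the precision.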

Additional observations from a re-analysis of the deposited data

Results flagged for a closer look

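For 2 members the excess of the hairy lines over cpc try depended on the facility in limma's test, Michigan minus Duke: RHD6 by 2.20 (SE 0.37, adjusted p = 0.000124) and bHLH82 by 2.65 (SE 0.65, adjusted p = 0.0146). For RHD6 the hairy lines exceeded cpc try by 5.17 at Michigan and 2.97 at Duke, and for bHLH82 by 5.47 at Michigan and 2.82 at Duke. The RHD6 value was 0.94 (adjusted p = 0.23) after quantile normalization of all arrays together and 1.28 (0.0956) without the gl3 egl3 groups, and that of bHLH82 was 2.27 (0.0581) after quantile normalization and 2.61 (0.0578) without cpc try replicate 3 of Duke, all short of the threshold.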

How the results depend on the processing

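No called difference of a member changed sign in any setting, and the replicate block changed no call (168 of 168 values on the same side), with 3 of 6 members called in rhd6 against wild type. Leaving out each array in turn gave 0 to 3 called shifts between related members, 0 to 2 members with ACC, 0 to 1 with IAA, 0 to 1 for rhd6 on MS against rhd6, 1 to 2 among the Duke hairy lines, 1 to 3 between facilities, 2 to 3 for rhd6 against wild type and against cpc try, and 3 to 4 for the Duke hairy lines against cpc try, while the other counts stayed at 0 or, for the Michigan hairy lines against cpc try and the lines against wild type, at 4. Fitting the compared groups alone called 0 members with ACC and 1 in rhd6 against cpc try. Quantile normalization called 0 shifts between related members, 0 members between facilities, and 1 each with IAA and for rhd6 on MS against rhd6. The median shift called 1 with ACC, 1 with IAA and 1 for rhd6 on MS, and the array series factor 1 with IAA. An unadjusted p under 0.01 called 3 with IAA and 6 for the Duke hairy lines. Without the gl3 egl3 group, 0 members were called among the Duke hairy lines, and 1 between facilities. Over all genes, fitting the compared groups alone called 204 pairs in the 9 outgrowth lines (1099 in the fit of all groups), 146 genes for rhd6 against cpc try (595), 136 with ACC (74), 0 with IAA (29), 0 for rhd6 on MS against rhd6 (254), 1002 in myc1 (2), 0 in bhlh66 (1), 0 for IAA against ACC (3), 260 over the 9 lines and wild type (863) and 199 among the Michigan hairy lines (480), and the 2-class fit 858 (1536) at Michigan and 183 (741) at Duke. The array series factor called 557 pairs in the 9 lines, 187 genes for rhd6 against cpc try and 0 for rhd6 on MS, where leaving out dim genes gave 403 and the median shift 401. Leaving out dim genes gave 0 for IAA against ACC, quantile normalization 261 between facilities (499), and omission of the Duke gl3 egl3 group 1483 among the Duke hairy lines (10014). An unadjusted p under 0.01 gave 2904 genes for the Michigan and 2549 for the Duke hairy lines against cpc try, 2058 pairs against wild type (1160), 3188 pairs in the 9 lines, 1794 over them and wild type, 1031 among the Michigan hairy lines, 1247 between facilities, 608 for rhd6 against wild type (404), 1178 against cpc try, 1574 with IAA, 402 with ACC, 123 between them, 984 for rhd6 on MS, 369 in bhlh66 and 546 in myc1. Except where fewer arrays explain a loss by construction, the cause was not tested. With 3 arrays, members with large spread, bHLH66 and bHLH82 first, are limited to changes well above 2-fold.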
